A study of Mus musculus with 7 samples.

Results

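Titin (*Ttn*), nebulin (*Neb*), obscurin-like 1 (*Obsl1*), the myomesin genes (*Myom1*, *Myom2* and *Myom3*) and myosin-binding protein H (*Mybph*) are thick-filament partners or giant scaffolds of the sarcomere. Nebulin-related anchoring protein (*Nrap*), which links actin to membrane complexes, was listed with them. The genes were taken from the expression table by their symbols, as a list around the protein lost with *Mybpc2*, and all 8 were among the 12239 genes measured. The mRNA of the tibialis anterior (TA), a fast-twitch shin muscle, was sequenced from male mice aged 5 to 6 months, in 4 wild-type (WT, FVBN/WT) and 3 *Mybpc2* knockout (C2-/-, FVBN/C2-/-) libraries. *Mybpc2* encodes fast myosin-binding protein C (fMyBP-C), and in the C2-/- allele a Neo cassette between LoxP sites stands in place of exons 2 to 22. The labels name no Cre driver, and they give no litter or batch for either group. The comparison asked how the transcripts of these scaffolds differed between muscle with and without fMyBP-C.

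In a sarcomere, myosin filaments are held at their middle by the M-band and actin filaments are anchored at the Z-disc. Titin spans from the Z-disc to the M-band and carries binding sites for MyBP-C along the thick filament, and nebulin runs along the actin filament and sets its minimum length. Myomesins crosslink thick filaments at the M-band, where titin and obscurin-like 1 also meet. Myosin-binding protein H is a short relative of MyBP-C in the same zone of the thick filament, and Nrap links actin to membrane complexes while myofibrils are being built and at the myotendinous junction.

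Values are log2 CPM (log2 of reads per 1000000 reads after scaling, 0.5 read added), given as mean ± SD, and a log2 change is C2-/- minus WT with its standard error (SE) from limma. A gene was past the threshold at an adjusted p under 0.05 with a fold change above 1.5, and "rose" and "fell" are used only for such genes. WT replicates 1 to 3 held 14929214 to 15464499 reads in the table, whereas WT replicate 4 held 4683853 and the C2-/- libraries 2613277 to 4917936, so the deepest libraries were all WT. *Mybpc2* itself stood at 12.68, 12.85, 12.41 and 12.51 in WT and at 1.16, 1.67 and -0.47 in C2-/- (6, 8 and 3 reads), in keeping with each label. Across all genes 45.2% were past the threshold (20.2% higher and 25.0% lower), and the median log2 change was -0.14, or 0.02 once each library was centred on its median. In bulk muscle, fewer cells of a type and less RNA per cell cannot be told apart.

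Among the 8 genes, *Neb* rose, *Obsl1* and *Myom2* fell, and *Ttn*, *Myom1*, *Myom3*, *Mybph* and *Nrap* were not past the threshold. The count of 3 of 8 stands beside the 45.2% of all genes. Without WT replicate 4 it was 6 of 8 (2 higher and 4 lower), with 6136 of the 12239 genes past the threshold, and without WT replicate 1 or 3 it was 2 of 8. The C2-/- values lay wholly above the WT values in 1 gene and wholly below them in 4, against 49.3% of all genes with no overlap in either direction (22.6% above and 26.7% below). The median log2 change of the 8 genes was -0.48, against -0.14 over all genes. After a correction for transcript GC content these medians were 0.08 and 0.02.

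**Figure D1:**
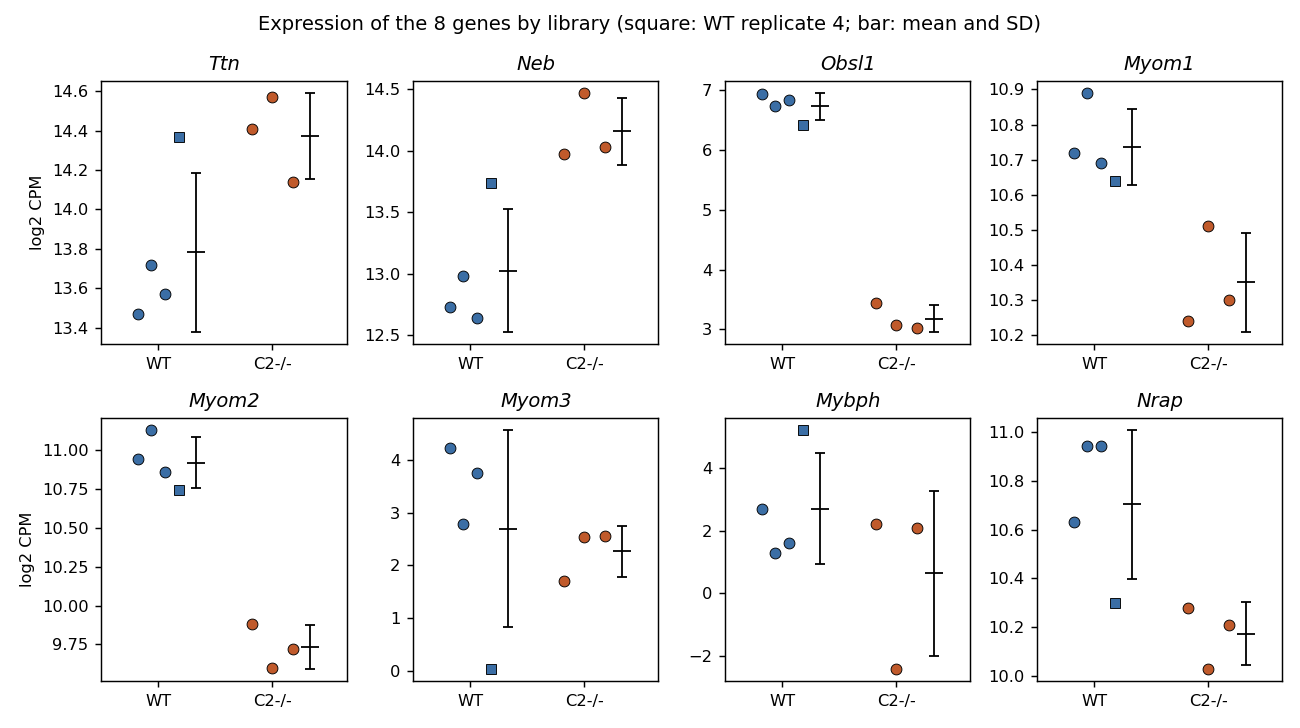
Log2 CPM of each of the 8 genes in the 7 libraries, with a separate vertical scale for each gene (log2 CPM). Points are libraries (squares mark WT replicate 4) and bars show mean and SD per genotype. *Obsl1* and *Myom2* show the C2-/- points far below all WT points, whereas the square sits among or beside the C2-/- points for *Ttn* and *Nrap*.

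The promoter sequences of the gene that fell most (*Obsl1*), of the largest scaffold (*Ttn*) and of the M-band gene *Myom1* are shown to let their motif content and base composition be compared. Each holds 250 bases before and 50 bases after the RefSeq start (GRCm38.p6), and 6 of the 8 genes were matched, all but *Neb* and *Myom2*. For *Obsl1* and *Ttn* this start is the outer end of the gene as annotated in GENCODE. For *Myom1* it is base 71019557, which lies 16924 bases inside the annotated gene and 36 bases from the start of its longest coding transcript. Capitals mark an E-box (CANNTG, the letters bound by myogenic factors such as MyoD), a MEF2 motif or a CArG box (the site of serum response factor), each searched on both strands.
Obsl1, chr1:75506403-75506702, minus strand: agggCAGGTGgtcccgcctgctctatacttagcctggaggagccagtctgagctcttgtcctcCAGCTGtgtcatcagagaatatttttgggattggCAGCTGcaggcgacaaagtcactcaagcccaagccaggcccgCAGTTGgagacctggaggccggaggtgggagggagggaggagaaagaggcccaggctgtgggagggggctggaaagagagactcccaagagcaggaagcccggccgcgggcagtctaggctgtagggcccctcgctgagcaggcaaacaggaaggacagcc
Ttn, chr2:76982498-76982797, minus strand: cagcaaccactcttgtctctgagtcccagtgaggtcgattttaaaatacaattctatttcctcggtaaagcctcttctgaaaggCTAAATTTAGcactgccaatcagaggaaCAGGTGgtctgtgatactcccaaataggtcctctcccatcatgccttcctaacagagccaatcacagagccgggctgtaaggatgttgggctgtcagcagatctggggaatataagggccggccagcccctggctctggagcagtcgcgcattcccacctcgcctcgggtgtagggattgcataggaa
Myom1, chr17:71019307-71019606, plus strand: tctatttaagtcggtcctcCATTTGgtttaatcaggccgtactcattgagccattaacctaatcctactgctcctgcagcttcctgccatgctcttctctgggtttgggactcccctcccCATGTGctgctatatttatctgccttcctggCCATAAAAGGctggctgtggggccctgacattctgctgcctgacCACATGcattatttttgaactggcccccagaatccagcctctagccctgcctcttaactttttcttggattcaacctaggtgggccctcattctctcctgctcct
The *Obsl1* window held 4 E-boxes, with first bases 246, 187, 153 and 111 bases before the start, and had a GC content of 62.0%. The *Ttn* window held a MEF2 motif 166 bases and an E-box 138 bases before the start, at a GC content of 51.7%. The *Myom1* window held 3 E-boxes, at 231, 130 and 55 bases, and a CArG box at 99 bases before that RefSeq start, at a GC content of 50.7%. Of 27025 RefSeq promoters of the same length, 72.1% held an E-box, 3.26% a MEF2 motif and 1.57% a CArG box, and the median GC content was 52.7%. These matches describe letters in a window and do not show binding.

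*Ttn*, the molecular spring of the sarcomere, lies on chromosome 2 (GRCm38, 76703980 to 76982547, minus strand), and its longest coding transcript has 347 exons and 106824 bases. Its log2 values were 13.47, 13.72, 13.57 and 14.37 in WT replicates 1 to 4 and 14.41, 14.57 and 14.14 in C2-/- replicates 1 to 3. WT replicate 4 stood apart from the other WT libraries and within the range of the C2-/- libraries. The means were 13.78 ± 0.40 (SD, n = 4) and 14.37 ± 0.22 (SD, n = 3), with a log2 change of 0.59 (SE 0.30, 95% interval -0.09 to 1.27, limma adjusted p = 0.132). The C2-/- mean differed from WT replicate 4 by 0.01. Without WT replicate 4 the change was 0.79 and past the threshold (limma adjusted p = 0.0253). With all libraries it was also past it under quantile normalization (1.06) and voom (0.60). The direction was not kept after a correction for transcript length (-0.15) or for GC content and length together (-0.02).

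*Neb*, the ruler of the thin filament, lies on the same chromosome (52136647 to 52378474, minus strand) and has 157 exons in a transcript of 22489 bases. In log2 CPM it stood at 12.73, 12.98, 12.64 and 13.74 in WT and 13.97, 14.47 and 14.03 in C2-/-. All C2-/- libraries lay above all WT libraries, and WT replicate 4 was the nearest of these to them. *Neb* rose 2.2-fold, from 13.02 ± 0.50 (SD, n = 4) to 14.16 ± 0.27 (SD, n = 3), a log2 change of 1.14 (SE 0.32, 95% interval 0.43 to 1.84, limma adjusted p = 0.0156). Against WT replicate 4 alone the C2-/- mean was higher by 0.42. The call was lost without WT replicate 1 (1.04, limma adjusted p = 0.0566) or without WT replicate 3 (1.01, limma adjusted p = 0.0608). It was also lost after a correction for transcript GC content (0.85, limma adjusted p = 0.0759), but was kept when that correction was made without WT replicate 4 (1.08, limma adjusted p = 0.0128), a fit chosen after seeing the data. A length correction (0.68, limma adjusted p = 0.0661) and a correction for GC content and length together (0.70, limma adjusted p = 0.0854) also ended the call. The GC correction brings every library onto the same curve of log2 value against GC content, the average over the libraries.

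The ratio of *Neb* to *Ttn* within a library cannot be moved by the scaling between libraries, and both transcripts have nearly the same GC content (47.0% and 47.4%). The log2 difference *Neb* minus *Ttn* was -0.74, -0.74, -0.93 and -0.62 in WT replicates 1 to 4 and -0.43, -0.11 and -0.11 in C2-/- replicates 1 to 3. Every C2-/- library lay above every WT library, WT replicate 4 included. The difference moved by 0.54, from -0.76 ± 0.13 (SD, n = 4) to -0.21 ± 0.19 (SD, n = 3), that is, 1.46-fold more *Neb* per *Ttn* read in C2-/-. The exact permutation p was 0.02857, which no result of this design can go below. Adjusted over the 4 differences tested (Benjamini-Hochberg) it was 0.0571 by the same exact test, so the shift missed the threshold. The transcripts differ in length, and after a length correction the shift was 0.83 with an exact permutation p of 0.08571 (adjusted 0.171).

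*Obsl1*, a cytoskeletal adaptor that binds titin and myomesin at the M-band, lies on chromosome 1 (75479310 to 75506452, minus strand) and has 20 exons in 5679 bases. The log2 values of the libraries were 6.93, 6.74, 6.83 and 6.41 in WT and 3.44, 3.07 and 3.03 in C2-/-. These rest on 1866, 1603, 1742 and 373 reads in WT and on 31, 22 and 39 reads in C2-/-. The groups lay far apart compared with their spread, and WT replicate 4, at a depth within the range of the C2-/- libraries, lay with the other WT libraries. *Obsl1* fell from 6.73 ± 0.22 (SD, n = 4) to 3.18 ± 0.22 (SD, n = 3), an 11.7-fold lower level with a log2 change of -3.54 (SE 0.21, 95% interval -4.01 to -3.08, limma adjusted p = 5.14e-05). The C2-/- mean was -3.23 relative to WT replicate 4 alone. Its transcript is rich in GC (62.5%), and after the GC correction the change was -1.64 and still past the threshold (limma adjusted p = 0.00122).

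*Myom1*, the myomesin of all striated muscle, lies on chromosome 17 (71002633 to 71126856, plus strand). Its log2 levels were 10.72, 10.89, 10.69 and 10.64 in WT and 10.24, 10.51 and 10.30 in C2-/-. All C2-/- libraries lay below all WT libraries, by a small distance. The means were 10.73 ± 0.11 (SD, n = 4) and 10.35 ± 0.14 (SD, n = 3), with a log2 change of -0.38 (SE 0.16, 95% interval -0.74 to -0.02, limma adjusted p = 0.0743), and the GC-corrected change was -0.09.

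*Myom2* encodes M-protein, the myomesin typical of fast fibres, and lies on chromosome 8 (15057653 to 15133541, plus strand). Measured as log2 CPM, it stood at 10.94, 11.13, 10.86 and 10.74 in WT and 9.88, 9.60 and 9.72 in C2-/-. WT replicate 4 lay beside the other WT libraries here, and the groups did not overlap. *Myom2* fell 2.27-fold, from 10.92 ± 0.16 (SD, n = 4) to 9.74 ± 0.14 (SD, n = 3), a log2 change of -1.18 (SE 0.17, 95% interval -1.55 to -0.81, limma adjusted p = 0.000749). The C2-/- mean was -1.0 relative to WT replicate 4, and the GC-corrected change was -0.71 (limma adjusted p = 0.00927), still past the threshold.

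The balance of the M-band genes was read from *Myom2* minus *Myom1* within each library, with GC contents of 51.8% and 50.7%. The log2 difference was 0.22, 0.24, 0.17 and 0.10 in WT and -0.36, -0.91 and -0.57 in C2-/-. It was above 0 in every WT library and below 0 in every C2-/- library. The shift was -0.80, from 0.18 ± 0.06 (SD, n = 4) to -0.61 ± 0.28 (SD, n = 3), or 1.74-fold less *Myom2* per *Myom1* read. The exact permutation p was 0.02857, and 0.0571 after adjustment over the 4 differences, which again missed the threshold.

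**Figure D2:**
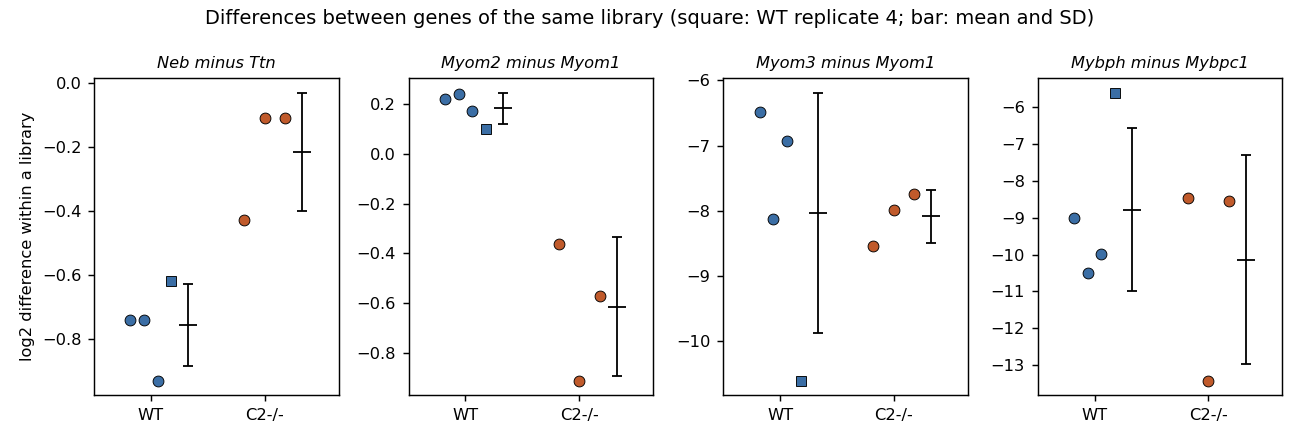
Log2 difference between pairs of genes of the same library, for *Neb* minus *Ttn*, *Myom2* minus *Myom1*, *Myom3* minus *Myom1* and *Mybph* minus *Mybpc1*, with a separate vertical scale for each pair. Points are libraries (squares mark WT replicate 4) and bars show mean and SD per genotype. The groups do not overlap in the *Neb* and *Myom2* panels (shifts of 0.54 and -0.80) and overlap in the others.

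*Myom3*, the myomesin of slow and intermediate fibres, lies on chromosome 4 (135759715 to 135815564, plus strand) and was scarce in this fast muscle. Its log2 values were 4.23, 2.78, 3.76 and 0.03 in WT (287, 102, 207 and 4 reads) and 1.71, 2.54 and 2.56 in C2-/- (9, 15 and 28 reads). WT replicate 4 was the lowest of the 7 libraries, and the groups overlapped. The means were 2.70 ± 1.88 (SD, n = 4) and 2.27 ± 0.49 (SD, n = 3), with a log2 change of -0.43 (SE 0.86, 95% interval -2.35 to 1.49, limma adjusted p = 0.700). The change was 0.08 without WT replicate 1 and -1.32 without WT replicate 4, where it was past the threshold (limma adjusted p = 0.0392), so neither a direction nor its absence can be read from these libraries. The within-library difference *Myom3* minus *Myom1* moved by -0.05 (exact permutation p = 1.0).

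*Mybph* lies on chromosome 1 (134193448 to 134201232, plus strand) and has 10 exons. In log2 CPM its values were 2.70, 1.29, 1.60 and 5.22 in WT (99, 36, 46 and 163 reads) and 2.22, -2.42 and 2.09 in C2-/- (13, 0 and 20 reads). WT replicate 4 was the highest library and C2-/- replicate 2 the lowest, where 0 reads allow a level of up to 1.12 CPM (3 reads, counting error only). The means were 2.70 ± 1.78 (SD, n = 4) and 0.63 ± 2.64 (SD, n = 3), with a log2 change of -2.07 (SE 1.23, 95% interval -4.80 to 0.65, limma adjusted p = 0.184). The change was -0.55 without C2-/- replicate 2 and -1.23 without WT replicate 4, so its size rested on single libraries. Relative to *Mybpc1*, the gene of slow MyBP-C, the within-library shift was -1.37 (exact permutation p = 0.54286, adjusted 0.724), and it was 0.27 without C2-/- replicate 2. Of the 2320 exon bases of *Mybph*, 1162 (50.1%) also lie in exons of *Adora1*, an adenosine receptor gene on the opposite strand, which had 60, 18, 18 and 70 reads in WT and 15, 1 and 24 in C2-/-. Whether the counting used strand is not stated, so reads from the shared bases cannot be assigned to either gene with certainty.

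*Nrap* lies on chromosome 19 (56320035 to 56390037, minus strand) and has 42 exons. The log2 levels read 10.63, 10.94, 10.94 and 10.30 in WT and 10.28, 10.03 and 10.21 in C2-/-. The groups did not overlap, but WT replicate 4 lay next to the highest C2-/- library. The means were 10.71 ± 0.31 (SD, n = 4) and 10.17 ± 0.13 (SD, n = 3), with a log2 change of -0.53 (SE 0.20, 95% interval -0.97 to -0.09, limma adjusted p = 0.0492), whose size was below the fold minimum. Without WT replicate 4 it was -0.66 and past the threshold (limma adjusted p = 0.00618). The direction was not kept after the GC correction, where the change was 0.24 (limma adjusted p = 0.311).

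Levels were compared between genes per length, as CPM per kilobase of transcript. In WT the order was *Neb* (389 ± 151), *Myom2* (383 ± 43.5), *Nrap* (308 ± 61.9), *Myom1* (302 ± 23.6), *Ttn* (136 ± 41.9), *Obsl1* (18.8 ± 2.77), *Mybph* (5.27 ± 7.18) and *Myom3* (1.79 ± 1.39), with n = 4 each. The neighbours *Neb* and *Myom2*, *Myom2* and *Nrap*, *Nrap* and *Myom1*, and *Mybph* and *Myom3* lay within their SDs of each other. In C2-/- the order was *Neb* (823 ± 161), *Myom1* (232 ± 23.3), *Nrap* (211 ± 18.8), *Ttn* (200 ± 30.0), *Myom2* (169 ± 16.7), *Obsl1* (1.58 ± 0.256), *Mybph* (1.24 ± 1.07) and *Myom3* (0.867 ± 0.271), with n = 3 each. *Myom2* thus moved from above *Myom1* to below it, whereas the neighbours *Myom1* and *Nrap*, *Nrap* and *Ttn*, *Ttn* and *Myom2*, *Obsl1* and *Mybph*, and *Mybph* and *Myom3* lay within their SDs. These levels assume the longest coding transcript of each gene.

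The changes of the 8 genes were set beside those of genes with like GC content, since across the series the log2 change followed GC content. For this, 12171 genes were ordered by GC content and divided into 10 classes of equal size. *Ttn* and *Neb* fall in class 4 (46.4% to 48.3%), where the median log2 change was 0.25 and 22.3% of genes rose. *Myom1* and *Myom2* fall in class 6, with a median of -0.35 and 22.9% of genes lower, and *Nrap* in class 7, with a median of -0.70 and 34.8% lower. *Myom3* and *Mybph* fall in classes 8 and 9, with medians of -1.01 and -1.28. *Obsl1* falls in class 10, the richest in GC, where the median was -1.73 and 64.7% of genes fell. *Neb* therefore lay above the median of its class and *Myom2* and *Obsl1* below theirs, while the change of *Nrap* was nearer to 0 than the median of its class. After the GC correction 2 of the 8 genes (*Obsl1* and *Myom2*, both lower) were past the threshold, beside 20.6% of all genes (12.3% higher and 8.34% lower).

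**Figure D3:**
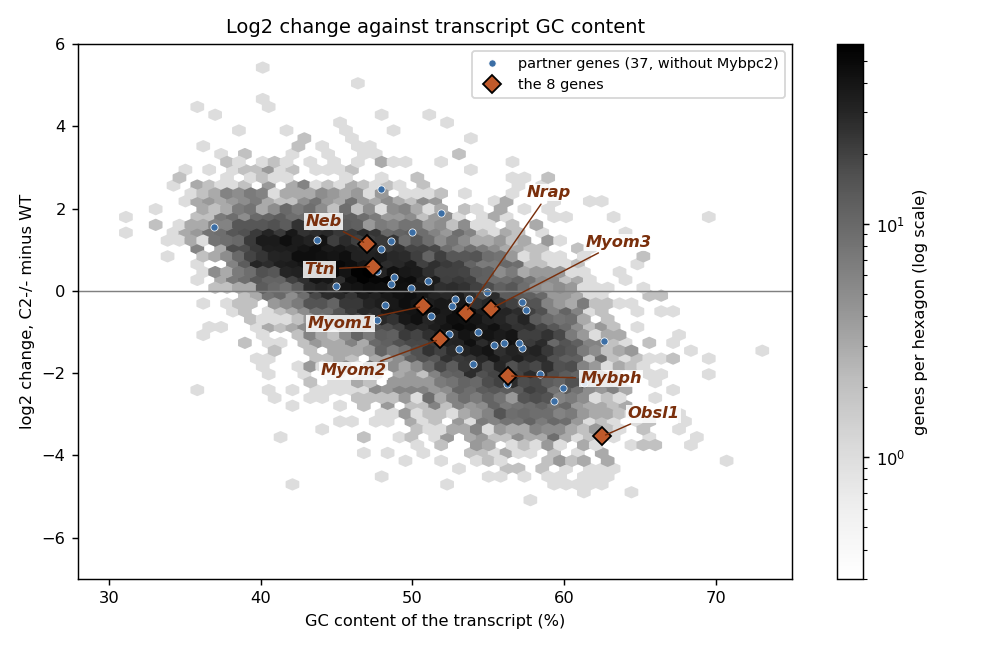
Log2 change (C2-/- minus WT) against the GC content of the transcript (percent) for 12171 genes, with shading for the number of genes on a log scale, blue points for partner genes and diamonds for the 8 genes. The cloud slopes down to the right, and *Obsl1* (62.5% GC, -3.54) lies toward its lower right end. *Mybpc2* and 1 other gene lie outside the axes, 2 in all.

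**Figure D4:**
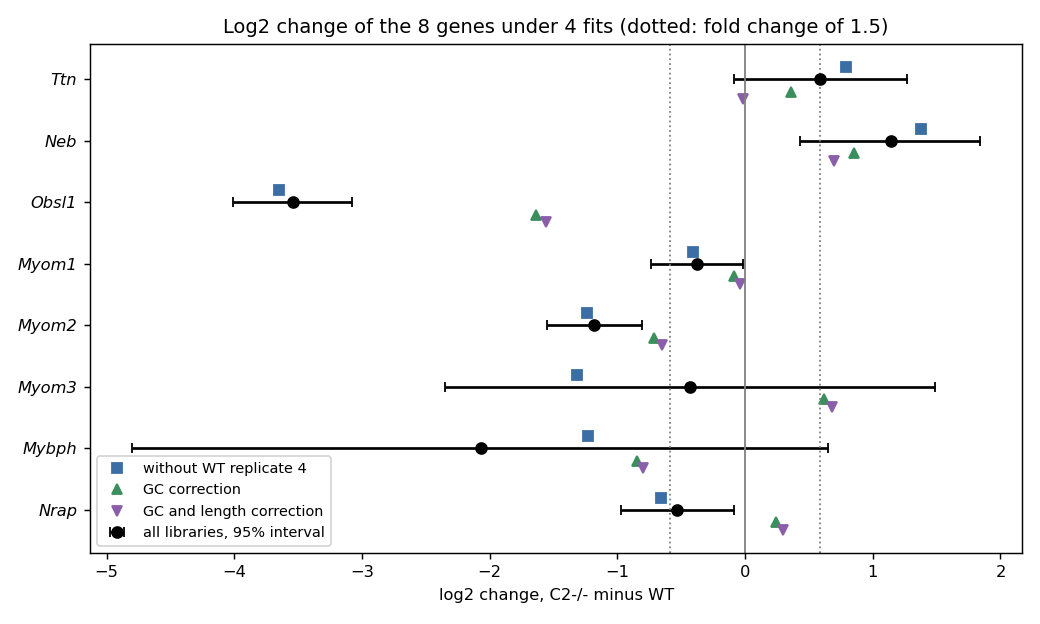
Log2 change of each of the 8 genes with all libraries (black, with 95% interval), without WT replicate 4, after the GC correction and after the GC and length correction. Dotted lines mark the 1.5-fold limit. *Obsl1* and *Myom2* stay left of 0 under all 4 fits, whereas the GC correction takes *Nrap* and *Myom3* across 0.

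The partner list held 42 genes in 7 roles around these scaffolds, of which 38 were analysed. Among the 38, 6 rose, 16 fell and 16 were not past the threshold, with a median log2 change of -0.36, beside 20.2% and 25.0% of all genes. After the GC correction 7 were higher and 6 lower, beside 12.3% and 8.34% of all genes, with a median of 0.08 against 0.02 over all genes. Of the MyBP-C genes both analysed members fell. *Mybpc2* changed by -11.82 (SE 0.41, limma adjusted p = 4.85e-07). *Mybpc1* fell by 0.70 on the log2 scale (limma adjusted p = 0.0406), and its GC-corrected change was -0.88 (limma adjusted p = 0.0343). However, the C2-/- mean was -0.06 relative to WT replicate 4. The call was also lost without WT replicate 1, 2 or 3 or C2-/- replicate 1 or 3 (-0.92 to -0.60 over the 7 fits that left out 1 library).

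Of the myosin heavy chains, which the myomesins crosslink, none of 4 was past the threshold, beside 45.2% of all genes. The log2 changes were -0.21 for *Myh4* (type IIb), -0.37 for *Myh1* (IIx), -0.20 for *Myh2* (IIa) and -2.27 for *Myh7* (slow). *Myh7* had 16 to 27 reads in WT replicates 1 to 3 and 0 in the other libraries, and was past the threshold without WT replicate 4 (-3.16). A further role held 2 analysed genes, *Speg*, a striated-muscle kinase, and *Ank1*, an ankyrin gene whose small muscle form sits in the sarcoplasmic reticulum membrane. *Speg* had log2 values of 8.54, 8.74, 8.67 and 8.27 in WT and 7.57, 7.17 and 7.26 in C2-/-, with no overlap. It fell by 1.22 on the log2 scale (SE 0.17, limma adjusted p = 0.000744), at a GC content of 62.6%. *Ank1*, named after its values were seen, had a log2 change of -0.26 (limma adjusted p = 0.198). After the GC correction both were past the threshold as higher (0.70, limma adjusted p = 0.0122, and 1.09, limma adjusted p = 0.00207), so the direction turned with that correction.

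Of the 7 analysed genes that work with nebulin or set thin-filament length, 3 rose and 3 fell, beside 20.2% and 25.0% of all genes. After the GC correction 2 were higher and 1 lower, beside 12.3% and 8.34%. *Cfl2*, the muscle cofilin that severs actin, had the largest rise (1.54, SE 0.23, limma adjusted p = 0.000895), and with a GC content of 36.9% its corrected change was 0.14. *Klhl40*, which stabilises nebulin and leiomodin 3, had the largest fall (-2.69, SE 0.41, limma adjusted p = 0.00104) and was -1.08 after the GC correction, still past the threshold. *Lmod2* (1.22) and *Lmod3* (1.01), leiomodins that nucleate actin at the pointed end, also rose and stayed past the threshold after the correction, although *Lmod2* was not past it without WT replicate 2 or C2-/- replicate 3. These leiomodins were named after their values were seen.

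Of the 14 analysed titin partners, 2 rose and 6 fell, beside 20.2% and 25.0% of all genes. After the GC correction 3 were higher and 2 lower, beside 12.3% and 8.34%, so the balance of the counts turned. *Ankrd1*, a stretch-responsive ankyrin repeat protein that binds the titin spring, had the largest rise (2.47, SE 0.58, limma adjusted p = 0.00725), and the corrected change was 2.31. *Trim54*, a muscle RING-finger ubiquitin ligase, had the largest fall (-2.36, SE 0.20, limma adjusted p = 0.000162), and the corrected change was -0.68. Both calls held after the correction. *Rbm20*, the splicing factor that sets the titin isoform, had a log2 change of -0.02 (limma adjusted p = 0.951) and was 0.99 and past the threshold after the correction, a gene named after its values were seen.

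Of the 6 genes around *Nrap*, 0 rose and 3 fell, beside the same 20.2% and 25.0% of all genes. After the GC correction 0 were higher and 1 lower, beside 12.3% and 8.34%. The largest fall was in the actin crosslinker *Flnc* (-2.03, SE 0.22, limma adjusted p = 0.000302), which was not past the threshold after the GC correction (-0.52). Of the 3 chaperones of myosin assembly, 1 rose and 1 fell, again beside 20.2% and 25.0% of all genes. *Hsp90aa1* rose (1.24, SE 0.29, limma adjusted p = 0.00666) and *Unc45b* fell (-0.99, SE 0.15, limma adjusted p = 0.00102). Neither was past the threshold after the correction (0.57 and -0.08).

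**Figure D5:**
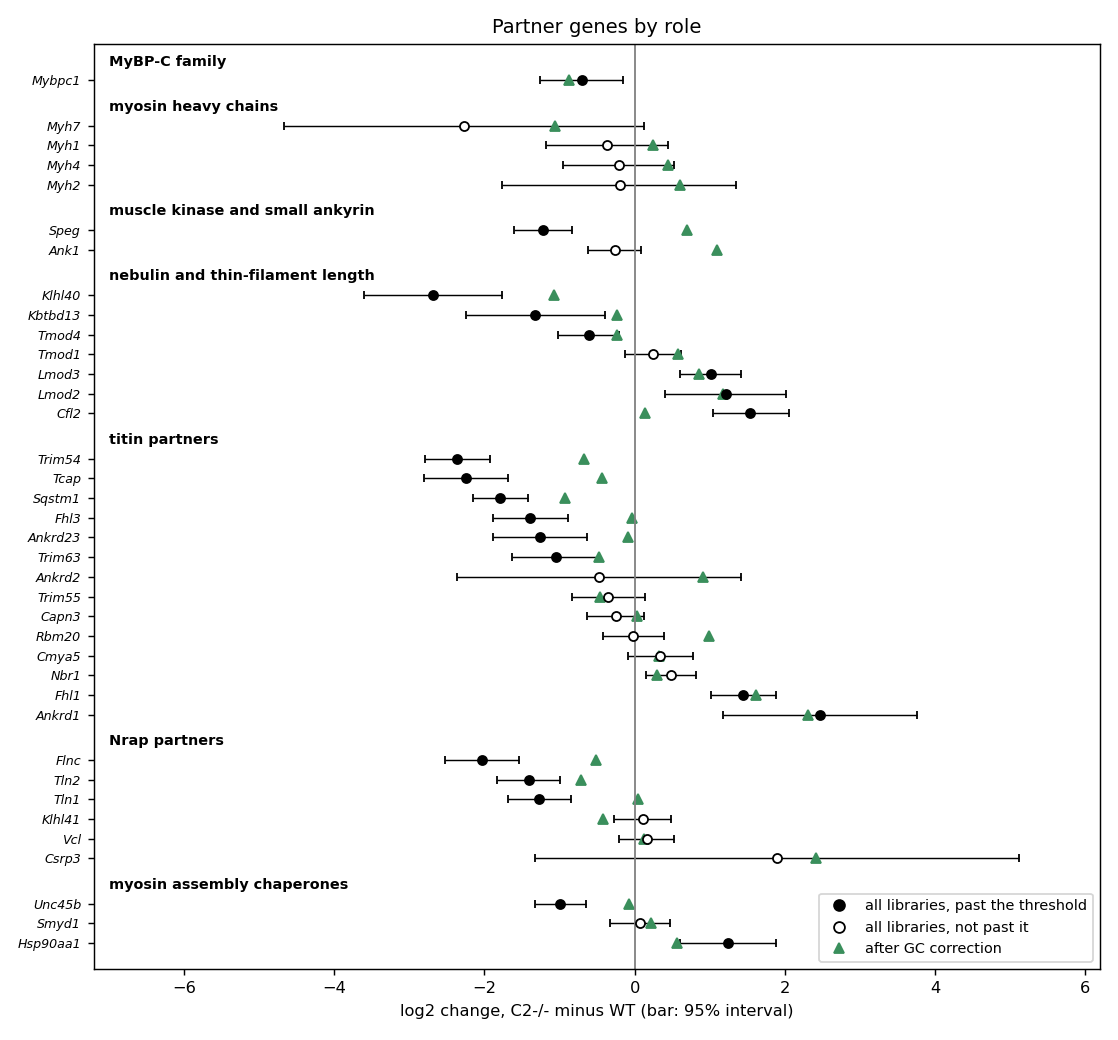
Log2 change (C2-/- minus WT) of 37 partner genes grouped by role, with 95% intervals and filled circles for genes past the threshold. Triangles give the GC-corrected change. *Mybpc2* (-11.82) is left off to keep the scale readable. Most of the falls move toward 0 after the correction, and *Speg* (-1.22 and 0.70) and *Tln1* (-1.27 and 0.05) cross it.

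Markers of the fibre types and of other cells were read beside these changes, and their counts stand beside 20.2% higher and 25.0% lower of all genes, or 12.3% and 8.34% after the GC correction. The fast-fibre markers were all present and summed to 191000 to 219000 CPM in WT and 92400 to 117000 CPM in C2-/-, with 6 of 8 lower. The slow-fibre markers (7 of 9 analysed, 0 past the threshold) summed to 78.2 to 144 CPM in WT and 81.0 to 107 CPM in C2-/-, and *Myh7* was at 0 reads in WT replicate 4 and all C2-/- libraries. The tendon and fibroblast markers (4 of 6 higher, 1 lower) summed to 339 to 549 CPM in WT, with WT replicate 4 the highest, and to 1230 to 1400 CPM in C2-/-. *Dcn* was the highest of them in every library (log2 9.98 to 10.08 in C2-/-) and weighs most in these sums, and *Scx* was the 1 lower (-2.15). The macrophage markers (1 of 4 higher) summed to 15.9 to 29.2 CPM in WT and 32.3 to 49.2 CPM in C2-/-. Only *Mrc1* was past the threshold (1.51), while *Cd68*, *Csf1r* and *Adgre1* changed by 0.20, 0.06 and 0.18. Markers of immature or denervated fibres (3 of 5 lower) summed to 55.4 to 116 and 23.1 to 36.3 CPM. Endothelial markers (1 of 4 lower) summed to 268 to 433 and 219 to 287 CPM, Schwann cell markers (1 of 4 lower) to 32.9 to 73.5 and 32.9 to 58.0 CPM, and the 2 analysed adipocyte markers to 0.195 to 4.10 and 2.06 to 11.6 CPM. After the GC correction the calls were 2 of 8 fast-fibre markers lower, 1 of 7 slow-fibre markers higher, 2 of 6 tendon and fibroblast markers higher, 2 of 5 immature or denervated fibre markers lower, 1 of 2 adipocyte markers higher, and 0 of 4 each for macrophage, endothelial and Schwann cell markers. The part of these differences in the changes of *Neb*, *Obsl1* and *Myom2* was not tested.

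The genes most like each of the 8 were found by the mean absolute difference of log2 values centred per gene, over 7 libraries and among the 7816 genes whose mean log2 value was 3 or more. These libraries share depth and GC differences, so likeness is a description only. For *Ttn* they were *Rtf1* (0.05) and *Cir1* (0.06), for *Neb* *Ubr3* (0.06) and *Tpr* (0.06), and for *Obsl1* *Ints1* (0.16) and *Rabac1* (0.20). For *Myom1* they were *Pmpca* and *Atpaf2* (0.07 each), for *Myom2* *Tcf25* (0.05) and *Slc39a13* (0.06), and for *Nrap* *Col6a2* (0.05) and *Ppp1cc* (0.07). None of these is a sarcomere protein. *Myom3* was the exception, since its nearest gene was the IIa myosin *Myh2* (0.35), followed by *Ldhb* (0.45), the heart-type lactate dehydrogenase of oxidative fibres. *Myh2* had log2 values of 9.60, 8.37, 9.59 and 6.45 in WT and 7.31, 9.10 and 8.50 in C2-/-, lowest in WT replicate 4 as *Myom3* was. The nearest genes to *Mybph* were far from it (*Nrp* and *Dctn3*, 0.78 each).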

How the data were processed

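Bulk TA mRNA was selected on oligo(dT) beads and sequenced as DNA nanoballs. Per the study's methods and the submitters' processing notes, clean reads were aligned with HISAT to GRCm38.p6, counted with featureCounts 1.5.2 and scaled with edgeR's TMM. The authors deposited log2 CPM values of 12239 genes, and whole reads were recovered from 100.0% of them in each library (tolerance 0.001 read). A table that the authors deposited with their own limma/voom comparison (log2 fold changes, p-values and adjusted p-values, scores) was not used. The filter on genes and the use of strand in counting are not given in the sources used here.

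Groups came from the sample titles (4 WT, 3 C2-/-). The main test was limma 3.58.1 in R 4.3.3 (lmFit, eBayes with a mean-variance trend) on the deposited log2 values with genotype as the only term, two-sided, Benjamini-Hochberg over 12239 genes. Within-library differences were compared by two-sided exact permutation tests. The GC correction replaced a natural spline of 5 degrees of freedom on transcript GC content, fitted per library, by the mean curve. GC content, length and positions came from the longest coding transcript of a GRCm38 annotation (GENCODE), matched for 12171 genes (99.4%), 353 of them by an older symbol. The fit was tested on simulated data.

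The 8 genes, the partner list and the markers were chosen with earlier results of these data known. Named partners were the largest rise and fall past the threshold in each role, with *Mybpc1* and *Mybpc2*. *Mybpc3*, *Mybphl*, *Nebl* and *Fhl2* were not analysed here, and 1 further gene of the planned list is not reported here. The libraries held 2613277 to 15464499 reads, so 3 reads stand for 0.195 to 1.12 CPM, and such floors cover counting error only. The study describes the samples as TA muscles of 3 C2-/- and 4 WT mice, and the sources used here give no litter or batch. A fold change includes the 0.5 read added before the log and understates changes of genes with few reads. Alternatives covered left-out libraries, the replicate block, scaling, filters, reads added, voom, library weights, GC content, length and thresholds.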

Additional observations from a re-analysis of the deposited data

Results flagged for a closer look

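In the WT group the highest and lowest library of 23 values (those of the 8 genes, of 9 partner genes named by the rule, the 4 within-library differences, the reads and the genes at 0 reads) were checked for a gap wider than Dixon's 95% limit for 4 samples. With 3 libraries, the C2-/- group is too small for this check. The check singled out 2 values, where chance gives about 1.2, and both belong to WT replicate 4. Its read total was 4683853, while WT replicates 1 to 3 had 14929214 to 15464499. It had 75 genes at 0 reads, and WT replicates 1 to 3 had 1 to 3 such genes. None of the 8 scaffold genes was singled out in this way, although WT replicate 4 was the highest WT library for *Ttn*, *Neb* and *Mybph* and the lowest for the other 5.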

How the results depend on the processing

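The depth of the C2-/- libraries limits *Mybph* and *Myom3*, which had at most 28 reads in C2-/-, and only 1 WT library (replicate 4) lay within their range of depth, which gives no test within it. Of 23 alternatives, *Obsl1* and *Myom2* kept their direction and call under all of them (-3.67 to -1.56 and -1.33 to -0.65), and *Myom1* stayed negative and not past the threshold (-0.46 to -0.04). The cause of the following changes was not tested.

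Genes past the threshold numbered 4095 to 6136 with 1 library left out, the 8 scaffold genes past it 2 to 6, and the partner genes 18 to 23. The count of all genes was 2509 after the GC correction (1494 higher, 1015 lower), 2513 after the GC and length correction, 3127 after a GC correction without WT replicate 4 (chosen after seeing the data) and 3216 at an adjusted p under 0.01. A length correction alone gave 3143 higher and 2324 lower genes. Scaffold genes past the threshold were 6 without WT replicate 4 and 5 with quantile normalization, and partner genes were 13 after the GC correction and 14 after that without WT replicate 4.

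*Ttn* (0.49 to 0.79 with 1 library left out) was past the threshold with quantile normalization (1.06), voom (0.60) and without WT replicate 4 (0.79), and reversed after the length correction (-0.15) and the GC and length correction (-0.02). *Neb* (0.98 to 1.38) was not past it without WT replicate 1 (1.04) or 3 (1.01), after the GC (0.85), GC and length (0.70) or length correction (0.68), or at an adjusted p under 0.01 (1.14), and was past it after the GC correction without WT replicate 4 (1.08) or with the replicate block (1.08). *Myom3* (-1.32 to 0.08) reversed without WT replicate 1 (0.08) and after the GC (0.62) and GC and length corrections (0.68). *Mybph* (-2.87 to -0.55) reversed after the GC correction without WT replicate 4 (0.09). *Nrap* (-0.66 to -0.45) was past the threshold without WT replicate 4 (-0.66), with quantile normalization (-0.60) and with no fold minimum (-0.53), and reversed after the GC (0.24), GC and length (0.30) and GC correction without WT replicate 4 (0.18).

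Within libraries, *Neb* minus *Ttn* (0.49 to 0.83) and *Myom2* minus *Myom1* (-0.93 to -0.61) kept their direction in all 12 alternatives. With all 7 libraries, the exact permutation p of *Neb* minus *Ttn* rose from 0.02857 to 0.08571 (adjusted 0.171) after correcting for length (0.83) or for both GC content and length (0.72). That of *Myom2* minus *Myom1* stayed at 0.02857 (adjusted 0.114). Fits with a library left out cannot reach a p under 0.05. *Myom3* minus *Myom1* (-0.90 to 0.47 with 1 library left out) reversed without WT replicate 1 (0.47) or 3 (0.32) or C2-/- replicate 1 (0.18) and after the GC (0.71) and GC and length corrections (0.72). *Mybph* minus *Mybpc1* (-2.21 to 0.27) reversed without C2-/- replicate 2 (0.27) and after these corrections (0.03 and 0.01).

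Both groups carry replicate numbers 1 to 3, but deviations of same-numbered libraries correlated at 0.06, -0.11 and -0.08 over 7816 genes. Not every library correlated best with its own number, so the numbers were not taken to pair the samples. As the deviations are from the means of only 3 or 4 libraries, this check cannot exclude a pairing. With the replicate block, in which WT replicate 4 has no partner, 5901 genes and 5 scaffold genes were past the threshold, with *Ttn* at 0.79 and *Nrap* at -0.66 added. With the block and the GC correction, 2919 genes and 14 partner genes were past it, and *Mybph* (0.09) and *Nrap* (0.18) reversed.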
